A study of Mus musculus with 4 samples.

Results

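The genes described here encode the MHC class I molecule and part of the machinery that loads it with peptide. They are 10 of the 13742 genes in the deposited table, chosen by name and not by any measured value: B2m, H2-K1, H2-D1, H2-Q4, H2-Q6, H2-Q7, H2-T23, Tap1, Tap2 and Tapbp. Their levels, their spread between cells and their correlates were measured in haematopoietic stem cells (HSCs), the bone marrow cells that renew all blood lineages. The cells came from wild-type mice aged 8 weeks and carried the surface phenotype called ESLAM SK: no lineage marker, Kit and Sca-1 present, CD150 present, CD48 absent and EPCR (CD201) present. They were sorted as CD27-negative or CD27-positive, and each was given its own barcode by STRT-seq, a method that tags the cDNA of single cells and reads the 3′ ends. All 4 libraries hold both CD27 gates and no source used here names the gate of a cell. The libraries were therefore treated as 1 group (n = 4), and no comparison between gates was made. The labels state no mouse strain and tie no library to its own mouse, so the spread between libraries may be technical.

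An MHC class I molecule is a heavy chain held together with beta-2-microglobulin, the light chain encoded by B2m. Proteasomes cut cytosolic proteins into peptides, the TAP transporter moves them into the endoplasmic reticulum, and tapasin (Tapbp) bridges TAP to empty heavy chains until a peptide is bound. The loaded molecule is shown at the surface, where CD8 T cells read the peptide and natural killer cells sense the amount of class I. H2-K1 and H2-D1 encode the classical heavy chains. H2-Q4, H2-Q6, H2-Q7 and H2-T23 encode class Ib heavy chains, which vary less between mouse strains, and H2-T23 makes Qa-1, the ligand of an inhibitory receptor of natural killer cells. Interferons and NF-kB raise transcription of many of these genes through short elements just upstream of their start sites.

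In the GENCODE M21 annotation of GRCm38, B2m lies on chromosome 2 (122147686 to 122153083, plus strand), and the other 9 genes lie on chromosome 17 in the MHC region. From Tapbp (33915899 to 33929292) the order runs through H2-K1 (33996017 to 34000347, minus strand), Tap1 (34187553 to 34197225), Tap2 (34203527 to 34216321), H2-D1 (35262730 to 35267499), H2-Q4 (35379617 to 35385290), H2-Q6 (35424850 to 35430055), H2-Q7 (35439155 to 35443773) and H2-T23 (36029773 to 36032855, minus strand). All 10 are annotated as protein coding. The RefSeq promoter table of build GRCm38.p6 holds a promoter for 9 of the 10 genes, Tap2 being the exception. Each promoter covers 300 bases, most of them before the start site.

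The promoter stretches below are shown because they carry the elements through which class I genes are known to be controlled together. They are written 5′ to 3′ on the strand of the gene, and capitals mark every match to a searched motif on either strand: GGGGATTCCC (the kB site of class I enhancer A), TTTCNNTTC and TTTCNNTTTC (the shorter and the full interferon-type element), CCAAT, and TGATGAC (an X2-type motif). The letters of the kB site were taken from H2-K1 and those of the full interferon-type element from H2-T23, with its middle bases free, and all motifs were chosen with these sequences in view. None of the matches overlap one another. The H2-K1 stretch runs to base 18 after the start site used, and its last CCAAT lies at 8 to 12. In a second H2-K1 promoter entry the same CCAAT lies at -6 to -2.
H2-K1, chr17:34000329-34000464, minus strand: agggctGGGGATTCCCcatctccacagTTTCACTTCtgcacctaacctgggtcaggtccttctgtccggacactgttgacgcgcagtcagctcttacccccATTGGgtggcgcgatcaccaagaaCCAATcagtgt
H2-D1, chr17:35262917-35263051, plus strand: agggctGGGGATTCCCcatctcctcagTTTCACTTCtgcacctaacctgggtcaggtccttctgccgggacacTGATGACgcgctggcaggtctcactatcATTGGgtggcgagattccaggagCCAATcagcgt
H2-Q6, chr17:35424671-35424805, plus strand: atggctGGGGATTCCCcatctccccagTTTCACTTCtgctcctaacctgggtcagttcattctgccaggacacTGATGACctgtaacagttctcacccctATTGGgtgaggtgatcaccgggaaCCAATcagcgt
H2-Q7, chr17:35439016-35439149, plus strand: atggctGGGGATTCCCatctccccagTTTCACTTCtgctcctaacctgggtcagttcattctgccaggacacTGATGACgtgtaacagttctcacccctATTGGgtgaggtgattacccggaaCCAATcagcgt
H2-Q4, chr17:35379458-35379572, plus strand: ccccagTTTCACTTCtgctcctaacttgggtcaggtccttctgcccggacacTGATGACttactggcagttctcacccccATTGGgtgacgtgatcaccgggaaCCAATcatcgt
B2m, chr2:122147542-122147644, plus strand: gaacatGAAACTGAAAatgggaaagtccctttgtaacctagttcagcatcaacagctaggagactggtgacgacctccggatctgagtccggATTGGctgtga
H2-T23, chr17:36032743-36032831, minus strand: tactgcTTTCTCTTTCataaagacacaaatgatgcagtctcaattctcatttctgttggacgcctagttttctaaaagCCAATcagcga

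The kB letters were found in the promoters of 4 members, H2-K1, H2-D1, H2-Q6 and H2-Q7, and in 0.107% of all 32851 promoters. The H2-Q4 promoter keeps the same layout from the interferon-type element onward but has no match to the kB letters in the window. An interferon-type element was found in 7 of the 9 promoters, against 10.4% of all promoters: the shorter form in the 5 genes H2-K1, H2-D1, H2-Q4, H2-Q6 and H2-Q7 (7.52% of all), and the full form in B2m and H2-T23 (3.44% of all). CCAAT was found in all 9 promoters and in 37.4% of all promoters. TGATGAC was found in H2-D1, H2-Q4, H2-Q6 and H2-Q7, and in 3.23% of all promoters. Tap1 and Psmb9, which encodes an immunoproteasome subunit, start 226 bases apart on opposite strands. These matches describe the letters only, and no binding was measured.

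Cells were kept with at least 10000 counts and at least 1000 genes detected, which left 292 of 297 cells (74, 75, 71 and 72 in libraries 1 to 4) with 5250569 to 11207442 counts per library. For correlations and spread each cell was reduced by random draws to 30000 counts (a thinned cell), and 16 shallower cells were left out. The 8 HSC markers checked (Procr, Slamf1, Ly6a, Kit, Mecom, Hlf, Fgd5 and Mllt3) summed to 2416 to 2913 CPM (counts scaled to a library total of 1000000) per library. Summed markers of B cells stood at 90.8 to 111 CPM, of T and natural killer cells at 28.9 to 109, of macrophages, monocytes and dendritic cells at 7.54 to 33.3, of neutrophils at 93.8 to 185 and of erythroid cells at 121 to 589. Endothelial markers summed to 324 to 516 CPM. Each marker gene in the table had counts, and Cd79a, Cd3g, Cd8a, Adgre1, Csf1r, C1qa and Itgax are not in the table. Libraries reuse cell numbers (24 of the 91 numbers used occur in all 4 libraries), and no 2 cells had identical counts.

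Before the levels are given, 15 cells need to be set apart, because their heavy chain transcripts lay below those of all other cells of their library. They are the consecutively numbered cells 26 to 33 of library 2 (8 cells) and 10 to 16 of library 4 (7 cells), and their profiles resembled each other across genes other than the 10 members. The median pairwise correlation in the window of neighbouring cells was 0.19 in the library 2 run and 0.22 in the library 4 run, and at most 0.022 in the separate windows outside them. They were first noticed by their B2m values, so the class I values below describe them and test nothing.

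In the library 2 run B2m stood at 17178 to 40545 CPM of the cell (median 31215), against 5529 to 21060 (median 11827) in the other 67 cells of that library. In the library 4 run it stood at 18587 to 29806 CPM (median 26137), against 3721 to 27214 (median 10185) in the other 65 cells. All 15 cells lay above the median of the other cells of their library, although the ranges overlapped. The heavy chains went the other way.

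The 6 heavy chains summed to 131 to 1898 CPM in the library 2 run and to 3105 to 15497 CPM in the other cells of library 2. In the library 4 run they summed to 96.2 to 1853 CPM, against 3277 to 17983 CPM in the others. These ranges did not overlap in either library, although 1 cell of library 3 that lies in no run had a sum of 1857 CPM. Expressed as the ratio of mean heavy chain CPM to mean B2m CPM, the runs stood at 0.045 (library 2) and 0.031 (library 4), and the other cells at 0.79 and 0.82.

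H2-K1, a classical heavy chain, stood at a median of 4752 and 4226 CPM in the other cells of libraries 2 and 4, and at 736 and 420 in the runs. H2-D1 stood at a median of 3102 and 2870 CPM in the other cells and at 268 and 51.9 in the runs. H2-Q4 and Tap2 had no count in any of the 15 cells. Tap1 had a count in 1 of 8 and 2 of 7 run cells, against 41 of 67 and 38 of 65 others, so B2m was the only member above its level in other cells in both runs.

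The same 15 cells also differed in depth and in mitochondrial content. The library 2 run had a median of 47472 counts and 1745 genes per cell, against 116605 counts and 2910 genes in the other cells of that library. The library 4 run had a median of 95650 counts and 1816 genes, against 151365 counts and 3239 genes. The median mitochondrially encoded share was 2.55% and 2.78% in the runs, and 1.38% and 1.30% in the other cells. Mean Apoe, an apolipoprotein gene expressed by the other cells, was 9.11 and 27.5 CPM in the runs, against 1472 and 1825. Mean Hbb-bt, a beta-globin gene, was 963 CPM in the library 2 run and 87.8 in the library 4 run, against 57.7 and 59.2 in the others. The labels say that cells were sorted into strips of tubes, but the sources used here do not tell which cells shared a strip. The part of depth, RNA quality or other cells in this pattern was not tested, and correlations below use all kept cells unless they are given as without the runs.

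**Figure D1:**
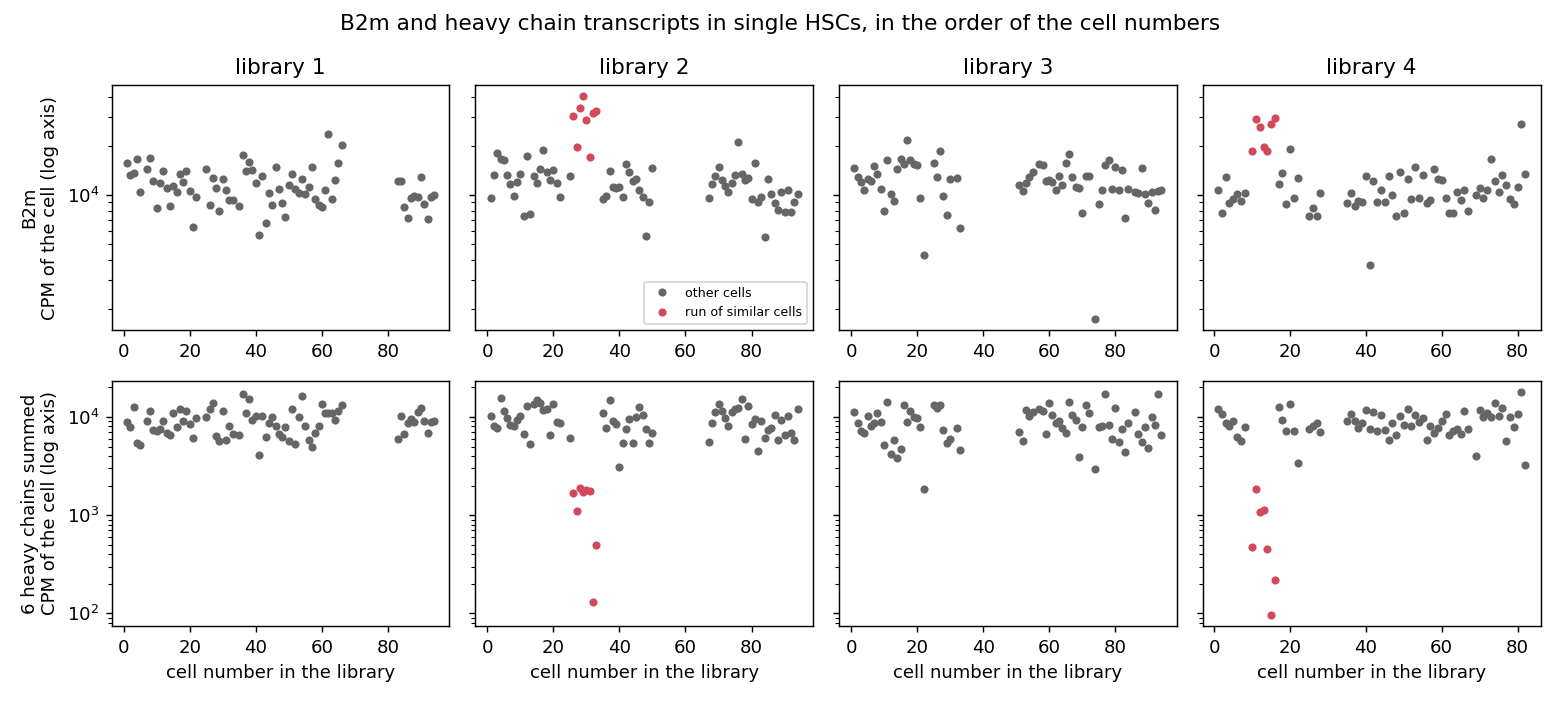
CPM of B2m (top row) and of the 6 heavy chains summed (bottom row) in each kept cell, on log axes, against the cell number within each of the 4 libraries; red points are the runs of similar cells and grey points all other cells. The 8 run cells of library 2 and the 7 of library 4 lie high for B2m and below all other cells of their library for the heavy chains.

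B2m was the most abundant transcript in the table. It took 11019, 12055, 11429 and 10667 CPM in libraries 1 to 4, a mean of 11293 ± 596 (SD, n = 4), and ranked 1 among all 13742 genes. Every one of the 292 cells had a B2m count. Within a library the single cells ranged from 5688 to 23755 CPM in library 1 and from 1725 to 21859 CPM in library 3, the libraries without runs. Leaving out the runs moved the mean to 10920 ± 639 CPM.

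The classical heavy chains followed. H2-K1 stood at 4755, 4479, 4119 and 3978 CPM (4333 ± 352, rank 15), and H2-D1 at 3052, 3029, 2907 and 2918 CPM (2976 ± 74.7, rank 38). H2-K1 was above H2-D1 in all 4 libraries, with ranges that did not overlap. Both were detected in 291 of 292 cells, and the single cell without a count lay in a run in each case.

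The class Ib heavy chains were lower and unequal. H2-Q7 stood at 695, 587, 576 and 640 CPM (625 ± 54.5) and had a count in 272 of 292 cells. H2-T23 stood at 386, 379, 431 and 457 CPM (413 ± 37.1), in 286 cells. H2-Q6 stood at 313, 379, 276 and 272 CPM (310 ± 49.7), in 251 cells. The ranges of H2-T23 and H2-Q6 overlapped, and H2-T23 was the higher of the pair in 3 of 4 libraries.

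H2-Q4 was the lowest member, at 22.1, 13.1, 12.4 and 9.55 CPM (14.3 ± 5.45), with a count in 87 of 292 cells. Its share of cells ran from 23.9% in library 3 (95% exact Clopper-Pearson interval 14.6 to 35.5) to 37.5% in library 4 (26.4 to 49.7), and was lower at equal depth, with a mean of 15.1 ± 4.82% in thinned cells against 29.8 ± 6.34% in all kept cells. The median cell of each library had no H2-Q4 count.

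Of the loading genes, tapasin (Tapbp) stood at 240, 221, 162 and 192 CPM (204 ± 34.3), Tap1 at 188, 217, 179 and 140 CPM (181 ± 31.5) and Tap2 at 125, 117, 97.1 and 121 CPM (115 ± 12.2). Tapbp and Tap1 overlapped between libraries, and Tap2 was below both in all 4. Tapbp had a count in 204 cells, Tap1 in 174 and Tap2 in 149 of 292. TAP is a heterodimer of the Tap1 and Tap2 products. Of 276 thinned cells, 66 had counts of all 3 loading genes, 89 of 2 of them, 87 of 1 and 34 of none. At this depth a cell without a count cannot be read as a cell without the transcript.

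Together the 10 genes took 20464 ± 885 CPM, that is 2.05% of all counts (1.94 to 2.15% over the libraries). CPM compares libraries but not genes of different length. Per kilobase of annotated exon, B2m stood at 13131 ± 693 CPM per kb, H2-K1 at 1475 ± 120 and H2-D1 at 1154 ± 29.0. H2-Q6 (149 ± 23.8), H2-Q7 (146 ± 12.8) and H2-T23 (143 ± 12.8 CPM per kb) overlapped and were not separable on this scale. Tapbp (56.2 ± 9.46) lay above Tap1 (33.1 ± 5.75) and Tap2 (30.4 ± 3.23), whose ranges overlapped, and H2-Q4 was lowest at 5.50 ± 2.1. Because the libraries hold 3′ ends, division by length may overcorrect. The exon length also sums all annotated transcripts, which adds more to some genes than to others. It is 4265 bases for H2-Q7, 2889 for H2-T23, 5476 for Tap1 and 2085 for H2-Q6. The longest protein-coding transcript spans 1523, 1472, 2953 and 2085 bases in the same order. The overlaps and the order per kb thus depend on the length used.

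**Figure D2:**
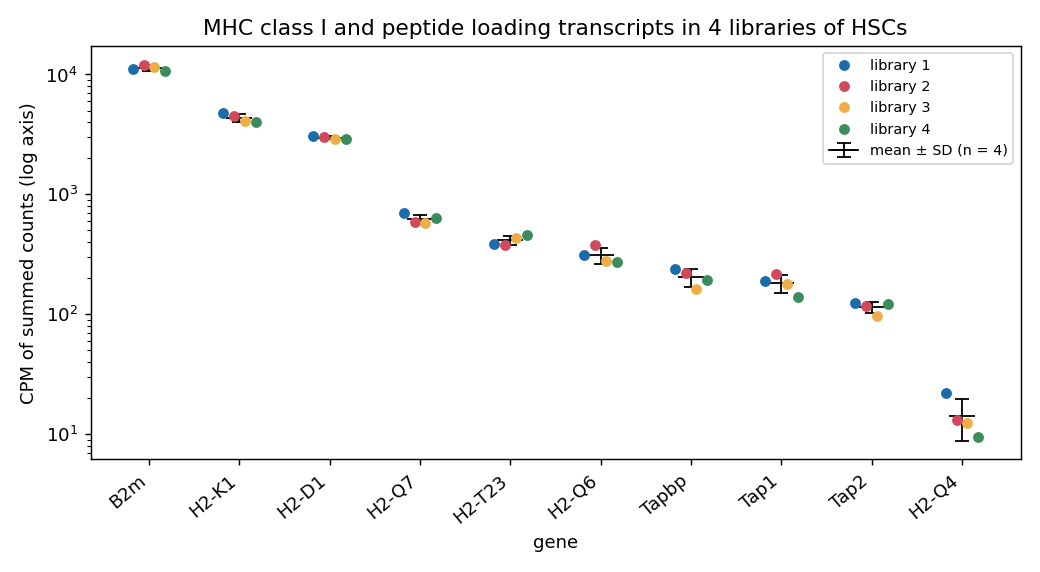
CPM of summed counts on a log axis for the 10 genes, ordered by mean; coloured points are the 4 libraries, and the black bar is the mean ± SD (n = 4). B2m, H2-K1 and H2-D1 stand apart from the rest, H2-T23 overlaps H2-Q6, Tapbp overlaps Tap1, and H2-Q4 is lowest.

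Class I genes are near copies of one another, so part of their counts may be misplaced or lost. Of all 100-base windows of the annotated transcript, 16.4% of H2-Q7 (233 of 1424), 200 of 1986 of H2-Q6, 4.44% of H2-D1, 3.71% of H2-T23 and 1.12% of H2-Q4 occur also in another H2 gene, and none of H2-K1, B2m, Tap1, Tap2 or Tapbp. In the last 500 bases, nearest to where 3′-enriched libraries are read, windows shared with any other gene made up 9.73% for H2-T23, 6.48% for H2-Q4 and 6.23% for H2-Q6, and 0 for the other 7. The reference sequence is that of C57BL/6J, and reads from another haplotype could map less well to the polymorphic heavy chains. The sources used here do not state how reads with several matches were counted.

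Spread between cells was described by the coefficient of variation (CV, SD divided by mean) in cells thinned to 30000 counts. The CV of B2m was 0.28, 0.48, 0.29 and 0.42 in libraries 1 to 4, and without the runs 0.28, 0.26, 0.29 and 0.30. The higher values thus belonged to the libraries that hold the runs. The run cells were first noticed by their B2m values, so the lower CV without them tests nothing. H2-K1 had a mean CV of 0.43 ± 0.07 (0.37 ± 0.03 without the runs) and H2-D1 0.46 ± 0.04 (0.41 ± 0.03). H2-Q7 and H2-T23 stood at 0.74 ± 0.08 and 0.73 ± 0.07, H2-Q6 at 0.90 ± 0.13, Tapbp at 1.19 ± 0.12, Tap1 at 1.51 ± 0.21, Tap2 at 1.56 ± 0.19 and H2-Q4 at 3.51 ± 0.96. CV rises as the mean count falls, so this order mostly follows the order of levels.

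Against the trend of CV on mean count over 3926 genes, the members split. The residual from the trend, in log10 units of the squared CV, was 0.44 ± 0.18 for B2m, 0.21 ± 0.07 for H2-K1 and 0.15 ± 0.04 for H2-D1, which placed them 27, 109 and 249 from the most variable gene. Each was above the trend in all 4 libraries. Without the runs the residuals were 0.29 ± 0.07, 0.18 ± 0.05 and 0.12 ± 0.08, and the ranks 69, 178 and 388 of 3942. Few genes reach the level of B2m, so the trend is thinly supported there.

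H2-T23 lay below the trend in all 4 libraries, at -0.19 ± 0.11 (rank 3787), and H2-Q6 had a mean of -0.16 ± 0.14 (rank 3721) with 1 library at 0.0030. Tap1 was above the trend in 3 of 4 libraries, at 0.10 ± 0.09 (rank 452). H2-Q7 (-0.03 ± 0.05), Tap2 (-0.05 ± 0.14) and Tapbp (-0.05 ± 0.12) lay within their spread between libraries of the trend. H2-Q4 had too few counts to be ranked.

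**Figure D3:**
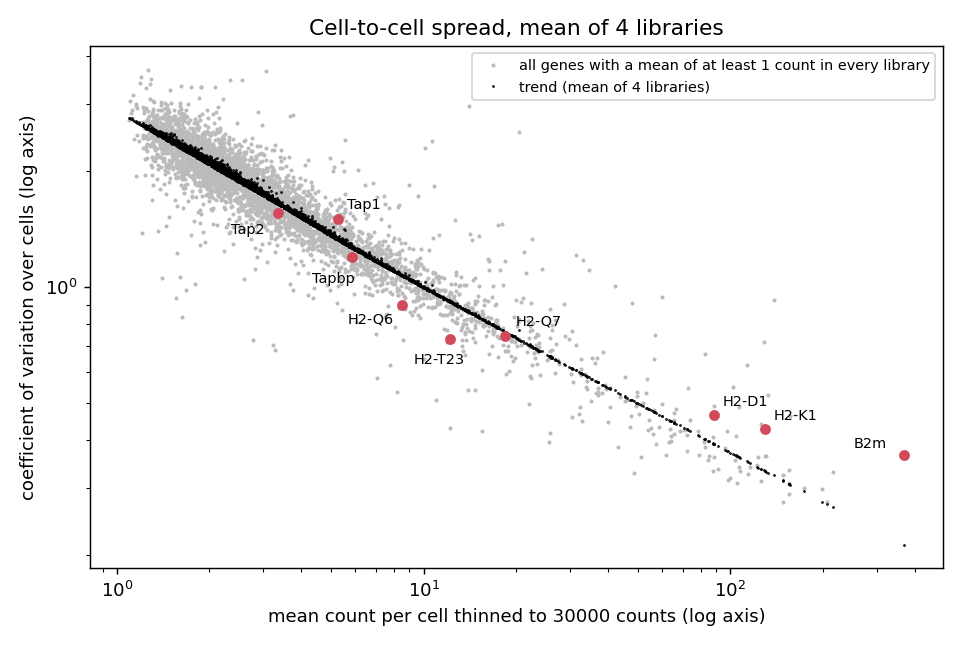
Coefficient of variation over cells against the mean count per thinned cell, both on log axes and averaged over 4 libraries; grey points are 3926 genes, black points the trend and red points the 9 members that could be ranked. B2m, H2-K1 and H2-D1 sit above the trend, and H2-T23 and H2-Q6 below it.

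Whether the transcripts rise and fall together was described by Spearman's rho across the thinned cells of each library, for all 45 pairs. Cells of 1 library share depth, preparation and thinning, so these correlations carry no p-value. Of the 45 pairs, 26 were above 0 in all 4 libraries, against 9.50% of all pairs of the 4539 genes with a count in at least 20% of cells, and no pair was below 0 in all 4. Without the runs 18 pairs were above 0 in all 4 libraries, against 8.75% of all pairs, and again none was below 0 in all 4 (background 4.88%; 4.72% with all kept cells). The median of the mean rho was 0.14 over the 45 pairs and 0.015 over all gene pairs. High levels make a correlation easier to see, and the members are more abundant than most genes tested, whose median was 2.56 counts per thinned cell.

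The tightest pair was that of the classical heavy chains. H2-K1 and H2-D1 had a rho of 0.37, 0.65, 0.64 and 0.63 (mean 0.57 ± 0.14), and 0.52 ± 0.11 without the runs. H2-D1 and H2-T23 followed at 0.41, 0.46, 0.37 and 0.53 (0.44 ± 0.07), and 0.40 ± 0.02 without the runs. H2-K1 and H2-T23 stood at 0.42, 0.21, 0.33 and 0.45 (0.35 ± 0.11), and at 0.28 ± 0.14 without. In all, 6 pairs reached 0.2 in every library, against 0.00760% of all gene pairs, namely these 3 and H2-K1 with H2-Q6, H2-K1 with Tap1 and H2-D1 with Tap1. Without the runs 4 pairs did (background 0.00615%): H2-K1 with H2-D1, H2-D1 with H2-T23, and B2m with H2-K1 and with H2-D1. The B2m pairs entered by leaving out cells that were first noticed by their B2m values.

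The relation of B2m to the classical heavy chains was above 0.2 in every library once the runs were left out. The run cells were first noticed by their B2m values and are low in heavy chains. Leaving them out was thus bound to raise this rho in their libraries, and the rise tests nothing. With all kept cells, B2m and H2-K1 had a rho of 0.46, 0.12, 0.49 and 0.05 (0.28 ± 0.23), low in the libraries with runs. Without the runs it was 0.46, 0.45, 0.49 and 0.36 (0.44 ± 0.06), above 0.3 in every library. On log2 counts with all kept cells the Pearson correlation of this pair was -0.01 ± 0.53, and that of B2m with H2-D1 -0.01 against a Spearman mean of 0.20 ± 0.20. B2m and H2-D1 moved from 0.28, 0.09, 0.44 and -0.02 with the runs to 0.28, 0.42, 0.44 and 0.27 without them (0.35 ± 0.09). The class Ib chains were less uniform: without the runs B2m had a rho of 0.20, 0.25, 0.37 and 0.09 with H2-T23 (0.23 ± 0.12), of 0.22, 0.35, 0.33 and 0.00042 with H2-Q7 (0.22 ± 0.16), and of -0.07, 0.15, 0.34 and -0.13 with H2-Q6 (0.07 ± 0.22). The loading genes gave values near 0: without the runs its mean rho was 0.03 ± 0.08 with Tap1, -0.03 ± 0.14 with Tap2 and 0.05 ± 0.08 with Tapbp.

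The subunits of the TAP transporter were weakly related. Tap1 and Tap2 had a rho of 0.19, 0.20, 0.09 and 0.05 (0.13 ± 0.07), Tap1 and Tapbp of 0.06, 0.10, 0.12 and 0.34 (0.16 ± 0.12), and Tap2 and Tapbp a mean of 0.05 ± 0.05. Without the runs these means were 0.10 ± 0.09, 0.14 ± 0.11 and 0.02 ± 0.08. Tap1 and Psmb9, the divergent pair, stood at 0.06, 0.25, 0.13 and 0.06 (0.13 ± 0.09), and at 0.12 ± 0.11 without the runs. H2-Q6 and H2-Q7, the near copies, had a rho of 0.12, 0.10, 0.22 and 0.28 (0.18 ± 0.08), and of 0.11 ± 0.09 without the runs. These transcripts have a mean of 3 to 18 counts in a thinned cell, and weak values at such counts are not read further.

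**Figure D4:**
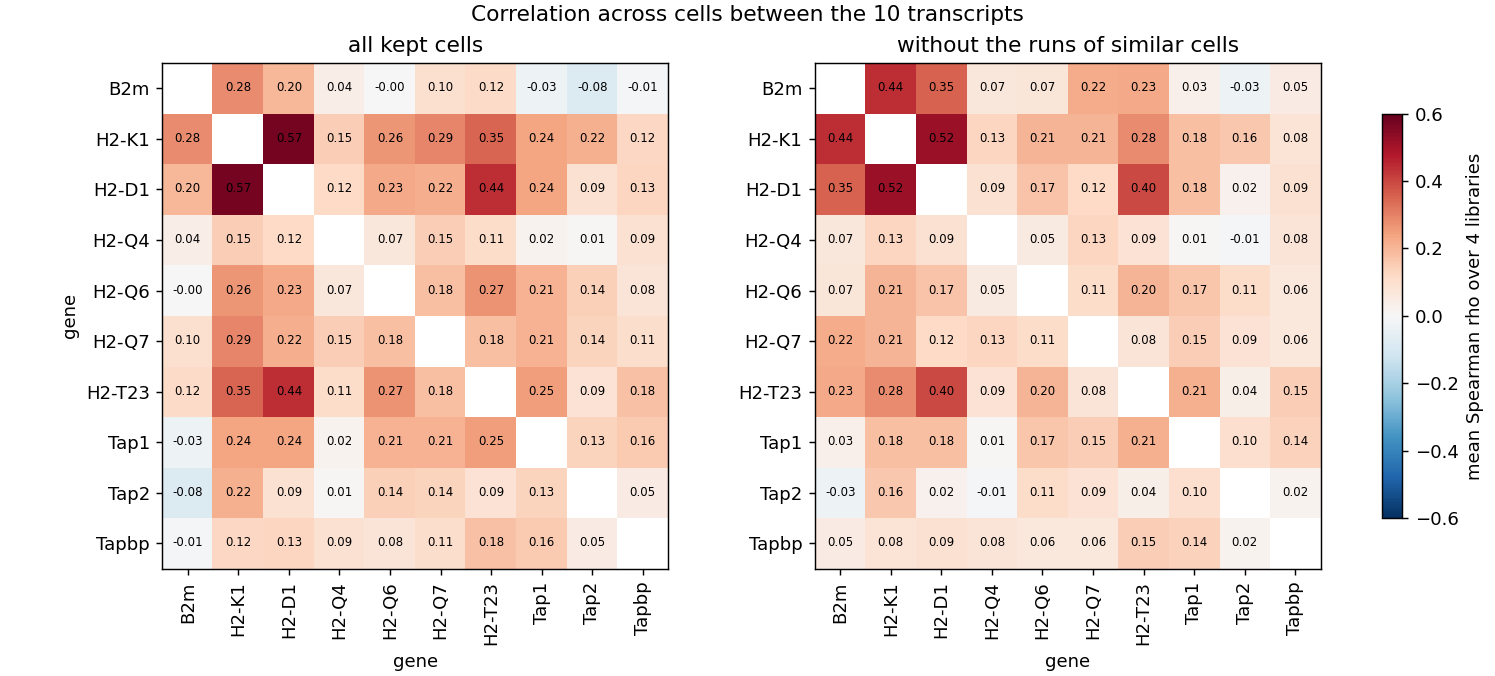
Mean Spearman rho over 4 libraries for each pair of the 10 genes, with all kept cells (left) and without the runs of similar cells (right); colour runs from -0.6 (blue) to 0.6 (red). The block of H2-K1, H2-D1 and H2-T23 is red in both, and B2m joins H2-K1 (0.28 on the left, 0.44 on the right) and H2-D1 (0.20 and 0.35).

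The ratio of heavy chain to B2m counts was taken per thinned cell, as log2 of heavy chain sum plus 1 over B2m plus 1. With all kept cells its median was -0.31, -0.34, -0.45 and -0.29 (-0.35 ± 0.07). Without the runs it was -0.31, -0.30, -0.45 and -0.20 (-0.32 ± 0.10). B2m counts thus exceeded the sum of all 6 heavy chains in the median cell of each library both ways. The SD of this log2 ratio over cells was 0.43 and 0.49 in libraries 1 and 3, and 1.38 and 1.67 in libraries 2 and 4. Without the runs it was 0.44 and 0.52 in libraries 2 and 4 (0.47 ± 0.04 over the 4). The difference between libraries in this spread came with 15 cells. These were first noticed by their B2m values and are low in heavy chains. Leaving them out was thus bound to lower this SD in their libraries, and the drop tests nothing.

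The genes nearest to each member by mean rho over 4 libraries were then listed, with all kept cells unless stated. For H2-K1 they were H2-D1, H2-T23 and Ltb (0.34 ± 0.21), for H2-D1 they were H2-K1, H2-T23 and Ltb (0.37 ± 0.24), and for H2-T23 they were H2-D1, H2-K1 and Ltb (0.33 ± 0.19). Ltb encodes lymphotoxin beta, a cytokine of the tumour necrosis factor family whose gene lies in the MHC. Its rho with H2-D1 was 0.01 in library 1 and 0.46 to 0.54 in the others, and without the runs it stayed among the nearest genes of H2-T23 but not of H2-K1 or H2-D1. For B2m the nearest were Rps27 (0.33 ± 0.13), Cd74 (0.29 ± 0.08) and Ifitm3 (0.29 ± 0.13), and without the runs H2-K1, H2-D1 and Cd74.

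The nearest genes of H2-Q7 were H2-K1, Psmb8 (0.29 ± 0.17) and Ptma (0.26 ± 0.12), and those of H2-Q6 were Bin2 (0.31 ± 0.15), H2-T23 and Ltb. Those of Tap1 were Nop2 (0.26 ± 0.11), Pdk3 (0.26 ± 0.11) and H2-T23. Those of Tap2 were Exosc3 (0.28 ± 0.11), Cir1 (0.27 ± 0.23) and Rbm39 (0.26 ± 0.08), those of Tapbp were Ctsf (0.25 ± 0.07), Chtf8 (0.25 ± 0.11) and Calm3 (0.23 ± 0.08), and those of H2-Q4 were Ppp2r1b (0.21 ± 0.04), Prkcd (0.20 ± 0.18) and Abca2 (0.19 ± 0.17). Each such gene was picked for its high rank among all genes tested, and picking by rank favours high values. How high a value rank alone would give was not tested.

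Over all genes with a count in at least 20% of thinned cells, a gene was counted as correlated where rho had the same sign and a size of at least 0.2 in each of the 4 libraries. B2m had 2 positive correlates of 4538 genes (0.0441%): Cd74, the invariant chain of MHC class II, at 0.29 ± 0.08, and Ifitm1, an interferon-inducible membrane protein gene, at 0.28 ± 0.04. It had 4 negative ones (0.0881%): Cct8, a subunit of the TRiC chaperonin, at -0.30 ± 0.02, Qdpr at -0.27 ± 0.05, Nt5c at -0.27 ± 0.03 and Pdap1 at -0.23 ± 0.04. With another thinning seed these counts were 1 and 9, and given the number of genes detected they were 1 and 0. Without the runs the positive correlates were H2-K1 and H2-D1 (0.0428% of genes). The negative ones numbered 3 (0.0643%), Adsl and Nt5c among them. The calls of H2-K1 and H2-D1 came with leaving out cells first noticed by their B2m values, and test nothing.

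The heavy chain sum had 3 positive correlates of 4534 genes (0.0662%): Itm2b at 0.34 ± 0.11, Gabarapl1, an autophagy gene, at 0.31 ± 0.04, and Tap1 at 0.29 ± 0.04. It had 1 negative correlate (0.0221%). Without the runs B2m (0.49 ± 0.09) and Itm2b (0.25 ± 0.02) were the positive correlates (0.0429%), the call of B2m again coming with the left-out cells. The negative ones numbered 2 (0.0429%), Hddc2 (-0.25 ± 0.04) among them. The negative count was 3 with another thinning seed and 6 at 60000 counts. The peptide loading sum had H2-K1 (0.29 ± 0.06) above and Rpl32 (-0.27 ± 0.02) below, each 0.0220% of 4536 genes, and no correlate in either direction without the runs or with another thinning seed. Leaving out any 1 library asks for agreement in 3 only and raised most of these counts, to as many as 29 for the negative correlates of B2m without library 1.

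B2m was also compared with depth. Its rho with the number of genes detected in the thinned cell was -0.37, -0.51, -0.32 and -0.60 (-0.45 ± 0.13), and with the deposited total of the cell -0.43 ± 0.15. These were -0.39 ± 0.07 and -0.39 ± 0.12 without the runs, so cells with fewer genes had a higher share of B2m in all 4 libraries. The heavy chain sum had a rho with genes detected of 0.07, 0.10, -0.24 and 0.0029 (-0.02 ± 0.15), and without the runs of 0.07, -0.14, -0.24 and -0.29 (-0.15 ± 0.16), below 0 in 3 of 4. The loading sum stood above 0 in all 4 libraries, at 0.25 ± 0.09 and 0.18 ± 0.07 without the runs. The median rho of B2m with all genes was -0.06, against 0.01 for the heavy chains and 0.03 for the loading sum, and the part of depth in the correlates of B2m was tested only through the partial rho given above.

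The rest of the class I pathway was measured through lists by role. Among transcription regulators, Nlrc5, the class I transactivator, stood at 22.6 ± 9.38 CPM with a count in 44 of 292 cells, Irf1 at 194 ± 79.2 in 186 cells, Irf9 at 163 ± 44.2 and Irf2 at 159 ± 33.3. Of the 17 regulators, 10 were frequent enough to be tested against the heavy chain sum, none was called (0.0662% and 0.0221% of all genes were, above and below 0), and 6 had a mean rho above 0, near the 56.4% of all genes. Without the runs 5 of the 10 did, against 45.7% of all genes. Irf1 had a mean rho of 0.09 ± 0.07, and of 0.05 ± 0.06 without the runs. Irf7 was the highest regulator, at 0.18 ± 0.06 (0.14 ± 0.09 without the runs). Nfkb1 was the lowest, at -0.09 ± 0.05 (-0.13 ± 0.05 without the runs). Irf7 was above 0 and Nfkb1 below 0 in every library both ways. Nlrc5 was below the detection limit set for correlations.

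The immunoproteasome genes encode the catalytic subunits and activator that shift cleavage toward peptides fitting class I. Psmb8 stood at 583 ± 51.0 CPM, Psme1 at 506 ± 22.6, Psmb9 at 317 ± 53.3, Psme2 at 214 ± 26.4 and Psmb10 at 199 ± 25.6. Of their constitutive counterparts, Psmb6 stood at 340 ± 40.8, Psmb5 at 140 ± 27.0 and Psmb7 at 7.87 ± 3.47 CPM. All 5 immunoproteasome genes had a mean rho above 0 with the heavy chain sum, against 56.4% of all genes. Without the runs all 5 again did, against 45.7%. None was called, against 0.0662% and 0.0221% of all genes above and below 0. Their median was 0.13 against 0.01 over all genes (0.07 against -0.0067 without the runs). Psmb8 was highest at 0.30 ± 0.15 (0.23 ± 0.08 without the runs).

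The list score of these 5 genes, a mean of standardised log2 counts, had a rho with the heavy chain sum of 0.26, 0.36, 0.26 and 0.13 (0.25 ± 0.10). Without the runs library 4 turned to -0.07 and the mean was 0.18 ± 0.17. With the loading sum the score had a rho of 0.19 ± 0.06, and 0.12 ± 0.08 without the runs, above 0 in all 4 libraries both ways. With B2m it had a mean of -0.06 ± 0.26, and of 0.02 ± 0.18 without the runs.

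Chaperones of the endoplasmic reticulum were well measured. Hspa5 stood at 579 ± 107 CPM, Pdia3, which sits in the loading complex, at 490 ± 62.9, Calr at 336 ± 44.6 and Canx at 200 ± 20.0. The tapasin-related Tapbpl stood at 64.7 ± 21.4 and the trimming peptidase Erap1 at 40.8 ± 10.9 CPM. Of 8 genes 7 were tested against the heavy chain sum and none was called, against 0.0662% and 0.0221% of all genes above and below 0. Hspa5 had the highest mean rho with the heavy chains, 0.26 ± 0.12 (0.18 ± 0.12 without the runs), while Canx had -0.04 ± 0.06 (-0.09 ± 0.11 without the runs).

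Other heavy chain genes were low. H2-M3, which presents formylated peptides, stood at 119 ± 21.8 CPM in 133 cells and H2-T22 at 98.6 ± 22.9 in 171 cells. H2-T24 had a mean of 4.72 ± 3.61 and H2-T3 of 1.47 ± 1.77 CPM, and 7 of the 18 listed genes were in the table. Among class I-like folds, Procr, which encodes the EPCR used in the sort, stood at 296 ± 47.8 CPM, Fcgrt at 133 ± 32.4, Cd1d1 at 94.1 ± 19.0 and Mr1 at 31.3 ± 10.2. Procr had a rho of 0.01 ± 0.10 with B2m and 0.03 ± 0.14 with the heavy chain sum, and of -0.0049 ± 0.11 and 0.03 ± 0.17 without the runs. Leukocyte receptors of class I were close to absent: of 9 genes 3 were in the table, and Pirb, Lilr4b and Klrd1 had a count in 1 cell each.

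With all kept cells the interferon response score showed the widest spread between libraries of any list compared with the heavy chain sum. This did not hold for B2m or the loading sum, where other lists spread more. Its rho with the heavy chain sum was 0.47, 0.12, 0.28 and -0.18 (0.17 ± 0.28), and 0.47, 0.28, 0.28 and -0.12 without the runs (0.23 ± 0.25). Library 1 was the highest and library 4 lay below 0 both ways, so without library 1 the mean was 0.07. Of 34 genes 24 were tested, and none was called with any of the 3 sums, against 0.0220% to 0.0881% of all genes. Of the 24, 19 had a mean rho above 0 with the heavy chains, against 56.4% of all genes. Without the runs 22 of the 24 did, against 45.7% of all genes, with a median of 0.08 against -0.0067. Shisa5 (906 ± 98.0 CPM) had a mean rho of 0.32 ± 0.11 and Ly6e (959 ± 89.5 CPM) of 0.21 ± 0.02, and without the runs Ly6e was the higher, at 0.29 ± 0.10 against 0.26 ± 0.12. Ifi203 (326 ± 46.5 CPM) had -0.02 ± 0.17 with all kept cells and 0.04 ± 0.14 without the runs.

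The MHC class II score had a rho with the heavy chains of 0.32, 0.22, 0.40 and -0.09 (0.21 ± 0.22), and of 0.25 ± 0.20 without the runs, with library 4 below 0 both ways. Cd74, at 471 ± 124 CPM, had a mean rho with the heavy chains of 0.26 ± 0.18, and of 0.33 ± 0.11 without the runs. The HSC identity score had a rho with the heavy chains of 0.32, 0.04, 0.39 and 0.30 (0.26 ± 0.15), and 0.23 ± 0.17 without the runs. It was above 0 in all 4 libraries both ways, though only 0.0090 in library 2 without the runs. Scores of class I-like folds and platelet genes were also above 0 in all 4 both ways. Within the HSC identity list Ly6a, which encodes Sca-1, had a mean rho of 0.21 ± 0.14 and Cd81 of 0.25 ± 0.12. Without the runs these were 0.26 ± 0.08 and 0.16 ± 0.05. H2-K1 and Cd27, the gene of the sorting marker, had a rho of -0.20, 0.02, 0.02 and -0.11 (-0.07 ± 0.11), and a mean of -0.01 ± 0.14 without the runs.

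Ribosomal and cycling genes went the other way. The score of 75 ribosomal protein genes had a rho with the heavy chains of -0.19, -0.24, -0.30 and -0.40 (-0.28 ± 0.09), and -0.24 ± 0.05 without the runs, below 0 in all 4 libraries both ways. With B2m it was 0.01 ± 0.15, and -0.06 ± 0.11 without the runs, so the sums of the light and heavy chains stood differently to this list, a difference that was not tested. The cycling score came from 4 tested genes of 14, namely Pcna, Mcm3, Mcm6 and Cenpa. Its rho was -0.41, -0.24, -0.38 and -0.16 with B2m (-0.30 ± 0.12) and -0.17 ± 0.12 with the heavy chains. Both were below 0 in all 4 libraries, also without the runs (-0.26 ± 0.17 and -0.23 ± 0.05). Of all genes only 21.6% had a mean rho above 0 with B2m, and the cycling value given the number of genes detected is not reported here. Oxidative phosphorylation had a rho of -0.30 ± 0.09 with B2m (-0.24 ± 0.08 without the runs), which with all kept cells was -0.07 given the number of genes detected.

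**Figure D5:**
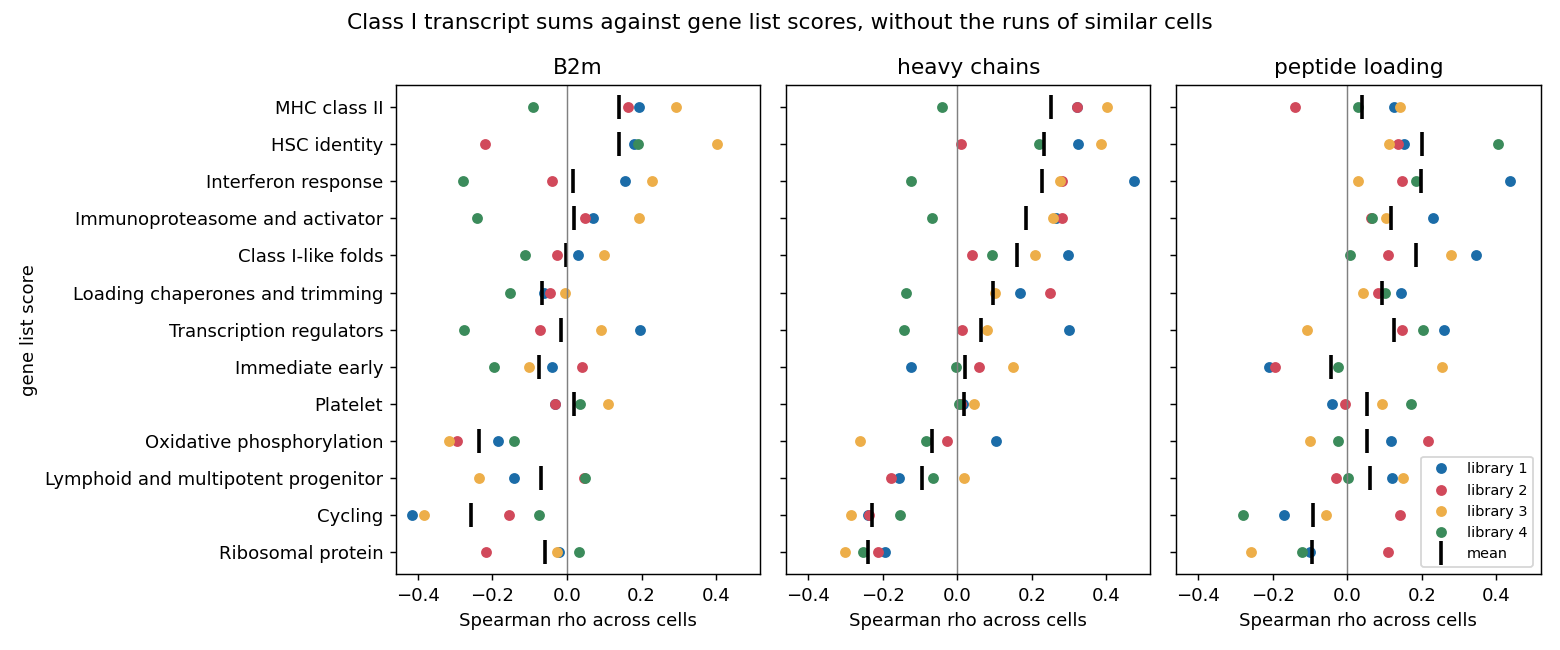
Spearman rho across cells of B2m, the heavy chain sum and the peptide loading sum with the score of each gene list, without the runs of similar cells; coloured points are the 4 libraries and the black bar their mean. For the heavy chains, ribosomal protein and cycling lie below 0 in all 4 libraries. HSC identity (0.0090 in library 2), class I-like folds and platelet lie above 0 in all 4. Library 4 (green) lies below 0 for every other list, interferon response, immunoproteasome and MHC class II among them.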

How the data were processed

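The deposited file holds whole-number counts per gene and cell, with no normalization, made by the authors. Per the submitters' processing notes the tools named are Trimmomatic 0.36, HISAT2 2.1.0 and HTSeq 0.9.1, with build GRCm38. Strand setting, treatment of reads with several matches and collapsing by molecular identifier are not given in the sources used here, so counts may include PCR copies and intervals (95%, exact binomial) cover counting error only. The sources name no doublet caller, none was run here, and per the labels' protocols the sort was set to avoid doublets.

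Each cell was placed in its library by its name. Counts of kept cells were summed per library and scaled to CPM. Spread and Spearman rho used cells thinned to 30000 counts with a fixed seed (numpy 2.4.6, pandas 2.3.3, scipy 1.17.1). The trend of squared CV on mean was a lowess fit (statsmodels 0.14.6) over genes with a mean of at least 1 count per thinned cell. List scores average within-library standardised log2(thinned count + 1) over genes with a count in at least 20% of cells, leaving out the 10 members. A list needed at least 3 such genes. Only the rule of a rho of at least 0.2 in each of 4 libraries was tested on simulated counts, against a known factor. The other steps were not tested in this way. TMM factors came from edgeR 4.0.16 (R 4.3.3).

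The 10 members and all lists were chosen with earlier results of these data known. Named genes are the members, genes of the pathway list, all called correlates and the 3 nearest genes of each member. Some genes that this rule names are not reported here. Psmb9 and Cd27 as partners of single members, and Apoe and Hbb-bt in the runs, were chosen after their values were seen. Runs of similar cells were defined after the data were seen: windows of 8 neighbouring cell numbers whose median pairwise correlation of log2(CPM + 10), centred within libraries and without the members, was at least 0.1 (a limit set after the window values were seen), extended to adjoining cells of the same profile, a step added after the first version left out 1 such cell. Alternatives changed the libraries, cell filter, thinning, seed, library size, weighting, correlation measure and call rule.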

Additional observations from a re-analysis of the deposited data

Results flagged for a closer look

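Among 117 values with a figure for each of 4 libraries, 9 had 1 library far from the other 3, measured by its gap to the nearest relative to the whole range, and chance alone sets apart about 1 in 20. The share of cells with a count of H2-K1 was 98.6% in library 4 and 100% in the others, and that of H2-D1 was 98.7% in library 2 and 100% in the others, 1 cell in each case. The CV of Tap2 was 1.85 in library 3, against 1.45 to 1.48. The rho of B2m and H2-Q4 was 0.26 in library 3, against -0.05 to -0.01. The rho of H2-K1 and H2-D1 was 0.37 in library 1, against 0.63 to 0.65. That of H2-K1 and H2-Q7 was 0.53 in library 2, against 0.19 to 0.23, and that of H2-D1 and Tap1 was 0.32 in library 2, against 0.20 to 0.21. That of H2-Q6 and Tapbp was -0.093 in library 3, against 0.12 to 0.16. The heavy chain sum with the oxidative phosphorylation score gave -0.26 in library 3, against 0.10 to 0.16.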

How the results depend on the processing

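No paired analysis was possible because all 4 libraries form 1 group. Of 1412 recomputed values over 21 settings, 1312 stayed within the spread between libraries (for counts, within 1.5 times). Leaving out 1 library can hardly move a mean beyond that spread, so such values were nearly bound to stay. The tally is therefore no measure of how robust the results are. No cell exceeded 20% mitochondrially encoded counts, so that limit removed none and its values could not move.

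The 10 genes summed to 21447 CPM when each cell had the same weight, and to 20127 to 20820 when 1 library was left out. The rho of B2m and H2-K1 was -0.013 as a Pearson correlation of log2 counts, and 0.21 to 0.36 with 1 library left out. H2-K1 and H2-D1 gave 0.55 to 0.64, pairs above 0 in every library 26 to 30, and heavy chains with interferon response 0.07 to 0.29 when 1 library was left out. The median log2 ratio of heavy chains to B2m gave -0.37 to -0.31, and its SD over cells 0.77 to 1.18. Pairs whose mean rho changed sign under some setting numbered 11 of 45. Only 2 of them, B2m with H2-K1 and with H2-D1, had a mean rho beyond 0.1.

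The counts of correlated genes were small and moved with most settings. B2m positive: 3 to 5 with 1 library left out, 1 with another seed, 1 at 60000 counts, 1 given genes detected, 5 at a rho of 0.15 and 0 at 0.3. B2m negative: 10 to 29 with 1 library left out, 11 unthinned, 9 with another seed, 0 given genes detected, 28 at 0.15, 0 at 0.3, and 2 or 9 for genes in at least 50% or 5% of cells. Heavy chains positive: 4 to 18 with 1 library left out, 15 at 0.15 and 0 at 0.3. Heavy chains negative: 3 to 6 with 1 library left out, 3 with another seed, 6 at 60000 counts, 9 at 0.15, 0 at 0.3 and 2 without the runs. Peptide loading positive: 2 to 10 with 1 library left out, 0 with another seed, 0 at 60000 counts, 9 at 0.15, 0 at 0.3 and 0 without the runs. Peptide loading negative: 1 to 4 with 1 library left out, 0 unthinned, 0 with another seed, 6 at 0.15, 0 at 0.3 and 0 without the runs. Except for the thresholds and the left-out libraries, which change the rule itself, the cause was not tested.

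Of the other values 50 moved, among them the shares of H2-Q4 (9.58% of cells with at least 3 counts, against 29.8% with at least 1). Scaling by length changed the order of members as given above, and spread as an SD of log2 counts, a different scale, was 0.43 for B2m and 0.61 for H2-K1 without the runs. Depth limits Tap1, Tap2, Tapbp and H2-Q4, which many cells showed at 0.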
